A study of Mus musculus with 6 samples.

Results

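The genes described here are 8 mouse genes of antigen presentation by MHC class II molecules, out of 54532 genes measured. They were taken by symbol. They encode 3 class II chains (H2-Aa, H2-Ab1 and H2-Eb1), the invariant chain (Cd74), the peptide-loading factor H2-DM (H2-DMa, H2-DMb1 and H2-DMb2) and the transactivator of class II genes (Ciita). Their RNA was measured by sequencing in neutrophils taken from the bone marrow of C57BL/6J mice, 3 libraries from wild type (WT, libraries 1 to 3) and 3 from progranulin knockout mice (PGRN KO, libraries 4 to 6). The cells had been picked out with magnetic beads against the neutrophil surface protein Ly-6G. All 6 libraries came from cells challenged in culture with live Candida albicans for 6 h, so there was no unchallenged group. The knocked-out gene was Grn, which encodes progranulin, and the KO and WT mice were obtained from different suppliers, so source and genotype cannot be told apart. Neither the labels nor the methods say how many mice were behind each library, and p-values therefore measure the spread between these libraries, which may be technical.

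Class II molecules are heterodimers of an alpha and a beta chain that carry peptides from ingested proteins to the cell surface, where CD4+ T cells read them. The invariant chain occupies their peptide groove and guides them to endosomes, proteases trim it, and H2-DM exchanges its last fragment for a peptide of the ingested protein. Transcription depends on CIITA, a coactivator that does not bind DNA itself and is recruited to a promoter module (S, X and Y boxes) by the RFX complex, CREB and NF-Y. Dendritic cells, B cells and macrophages carry class II constitutively or after activation, and neutrophils carry little unless exposed to cytokines such as interferon gamma. C57BL/6 mice have the H2-b haplotype, in which H2-Ea is not expressed, so that H2-Eb1 has no alpha chain partner at the surface.

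Of the 8 genes, 7 were lower in PGRN KO than in WT neutrophils after challenge with C. albicans, and none was higher. Ciita fell by 81.4% of its WT level, H2-Aa by 66.1% and H2-Eb1 by 61.8%, and Cd74, the most abundant of the 8, by 27.8%. H2-DMa, H2-DMb1 and H2-Ab1 lay between these, with falls of 54.6%, 52.7% and 46.7%. The exception was H2-DMb2, which was close to the limit of detection and whose values overlapped between genotypes. For comparison, 9.95% of the 14807 genes tested were called lower and 7.94% were called higher in PGRN KO, with limma on log2(FPKM + 1) at a Benjamini-Hochberg adjusted p under 0.05. The 8 genes were chosen with earlier results of these data known, so their count is a description and not a test.

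The sequences of the promoters are shown because the genes of the class II chains, the invariant chain and H2-DM are known as targets of CIITA through this module. RefSeq windows (GRCm38.p6, 250 bases before to 50 after the start) were matched for 5 of the 8 genes by symbol: H2-Aa, H2-Eb1, H2-DMa, H2-DMb1 and H2-DMb2. In the 4 windows below, written 5′ to 3′ on the strand of the gene, capitals mark the core of the X box (ACNGATG) and the Y box (GATTGG).
H2-Aa (chr17:34287774-34288073, minus strand): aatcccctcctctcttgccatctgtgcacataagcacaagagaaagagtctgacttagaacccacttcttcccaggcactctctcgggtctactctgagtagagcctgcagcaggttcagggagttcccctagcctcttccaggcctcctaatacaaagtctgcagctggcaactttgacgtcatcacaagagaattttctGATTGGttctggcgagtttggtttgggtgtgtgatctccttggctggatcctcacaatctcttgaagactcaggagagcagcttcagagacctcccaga
H2-Eb1 (chr17:34305617-34305916, plus strand): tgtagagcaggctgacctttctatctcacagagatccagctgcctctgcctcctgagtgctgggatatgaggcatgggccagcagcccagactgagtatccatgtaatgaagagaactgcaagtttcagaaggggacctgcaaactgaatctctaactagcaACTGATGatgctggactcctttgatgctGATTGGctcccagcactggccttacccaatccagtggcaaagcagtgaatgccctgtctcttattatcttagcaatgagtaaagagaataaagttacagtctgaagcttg
H2-DMb1 (chr17:34152941-34153240, plus strand): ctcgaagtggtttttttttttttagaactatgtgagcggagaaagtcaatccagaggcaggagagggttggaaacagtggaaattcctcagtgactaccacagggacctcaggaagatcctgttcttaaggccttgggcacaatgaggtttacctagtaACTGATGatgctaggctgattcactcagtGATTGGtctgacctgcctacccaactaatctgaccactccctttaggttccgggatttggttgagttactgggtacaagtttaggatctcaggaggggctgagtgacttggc
H2-DMb2 (chr17:34144999-34145298, plus strand): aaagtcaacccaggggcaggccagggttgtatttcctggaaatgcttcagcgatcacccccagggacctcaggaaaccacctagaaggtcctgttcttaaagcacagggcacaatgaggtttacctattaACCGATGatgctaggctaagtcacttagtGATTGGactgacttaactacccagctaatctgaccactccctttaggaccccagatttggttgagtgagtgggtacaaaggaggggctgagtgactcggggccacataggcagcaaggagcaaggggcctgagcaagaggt

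In H2-Eb1 the X box core began at position -88 and the Y box at position -60, counted from the start. H2-DMb1 held the same pair at -91 and -62, and H2-DMb2 held it at -120 and -91. The spacing of the pair was therefore 28 bases in H2-Eb1 and 29 bases in both H2-DMb genes. In H2-Aa a Y box stood at -49, and the ordered pair was not found. The X box core was matched only on the other strand, near the 5′ end of the window and far from the Y box. An X box with letters other than ACNGATG would be missed by this search. Of the 2 windows listed for H2-DMa, 1 held a Y box, at -199, and neither held the X box core. Searched on both strands, the Y box was present in 16.1% of the 32851 promoter windows of the table and the X box core in 9.85%. The ordered pair on 1 strand, with starts 20 to 40 bases apart, was present in 22 windows (0.067%), which belonged to 20 genes, 4 of them class II genes (H2-Eb1, H2-DMb1, H2-DMb2 and H2-Eb2). Of the genes with the pair outside class II, none that was tested was called lower in PGRN KO, beside 9.95% of all genes tested. The starts are those of RefSeq, and for H2-DMb2 and H2-DMb1 that start lies inside the gene as the deposited table places it. For H2-Aa it does so by a few bases. These matches describe letters in a window and not occupied sites. The same ordered pair stood in front of H2-DMb1, which fell in PGRN KO, and of H2-DMb2, which was not called. H2-DMb2 rests on 33 and 26 fragments, where a difference was not detectable, so these 2 genes were not shown to differ in their change.

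On GRCm38, the coordinates of the deposited table, 6 of the 8 protein-coding genes lie within the class II region of chromosome 17. In order they are H2-DMa (34135182 to 34139101), H2-DMb2 (34143307 to 34151553), H2-DMb1 (34153072 to 34160230), H2-Ab1 (34263209 to 34269418), H2-Aa (34282744 to 34287827, minus strand) and H2-Eb1 (34305877 to 34316199). Ciita lies on chromosome 16 (10480059 to 10528418) and overlaps Dexi on the opposite strand. Since the library kit did not mark strand, reads from that overlap cannot be assigned to 1 gene with certainty. Dexi itself had a mean of 0.921 FPKM in WT and 0.6004 in PGRN KO. Cd74 is on chromosome 18 and overlaps a microRNA gene.

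The values are FPKM, fragments per kilobase of gene and per library size, so levels can be compared between genes. Multiplying by gene length gave back whole fragments, with 17290604 to 17799798 fragments on genes per WT library and 17087344 to 18821091 per PGRN KO library. Grn itself was at 168, 161 and 166 FPKM in WT and at 0.242, 0.206 and 0.747 in PGRN KO, low in every library labelled knockout. Neutrophil markers dominated every library, with S100a9 at a mean of 31333 FPKM in WT and 36371 in PGRN KO. Of the 10 neutrophil markers examined, 1 was called higher (Mmp9) and 2 lower (Csf3r and Mmp8), with a median log2 fold change of -0.077. For comparison, 7.94% of all genes tested were called higher and 9.95% lower. Mmp9 lost its call without WT library 1, 2 or 3, Mmp8 without any of these or PGRN KO library 5, and Csf3r in every case but the removal of PGRN KO library 4. The authors' scaling lowered the PGRN KO values by 0.12 log2 units relative to plain totals of fragments. With plain totals the share of called genes that were higher in PGRN KO was 69.7% instead of 44.4%, and 7 of the 8 class II genes were still called lower. The median of the neutrophil markers was then 0.042, and of the 3 called markers Csf3r (limma adjusted p = 0.525) and Mmp8 (adjusted p = 0.0842) were not called.

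H2-Aa encodes the alpha chain of I-A, the class II molecule of this strain. It was at 19.1, 18.0 and 18.6 FPKM in the WT libraries and at 6.67, 5.94 and 6.30 in the PGRN KO libraries. The genotypes were far apart. The mean went from 18.6 ± 0.531 to 6.30 ± 0.366 FPKM (SD, n = 3 each), on 1768 and 657 fragments, and the log2 fold change was -1.42 ± 0.056 (SE, limma adjusted p = 5.5e-05). By size of fold change H2-Aa ranked 8 among the 1473 genes that were called lower.

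H2-Ab1, which encodes the beta chain of I-A and pairs with H2-Aa, was at 34.4, 35.8 and 29.5 FPKM in WT and at 18.5, 17.6 and 17.1 in PGRN KO. The WT libraries varied more among themselves than the PGRN KO libraries, and the groups did not overlap. Its log2 fold change was -0.87 ± 0.078 (limma adjusted p = 0.00113), on 2763 and 1614 fragments. The 95% intervals of the 2 partners, -1.56 to -1.29 for H2-Aa and -1.05 to -0.68 for H2-Ab1, did not overlap. The ratio of H2-Aa to H2-Ab1 within a library was 0.503 to 0.631 in WT, against 0.337 to 0.369 in PGRN KO, so the alpha chain RNA was lower relative to its beta chain RNA in every PGRN KO library. That ratio compares values within a library and was not tested.

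H2-Eb1 encodes the beta chain of I-E. Its values were 27.0, 26.7 and 24.8 FPKM in WT, against 9.32, 10.2 and 10.4 in PGRN KO. Again the groups were separated by more than their own range. The log2 fold change was -1.31 ± 0.059 (limma adjusted p = 0.000105), on 1571 and 658 fragments, which ranked 13 among the genes called lower. Summed, the 3 chains reached 80.4, 80.5 and 72.9 FPKM in the WT libraries, against 34.5, 33.8 and 33.7 FPKM in PGRN KO, a ratio of mean levels of 0.436.

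Cd74 encodes the invariant chain, and its level in WT stood above that of 95.8% of the genes tested. It was at 85.9, 79.8 and 81.2 FPKM in WT and at 64.3, 58.1 and 55.8 in PGRN KO. The groups did not overlap, but the gap was narrower than for the chains. Cd74 had a log2 fold change of -0.47 ± 0.062 (limma adjusted p = 0.00449), on 5895 and 4654 fragments, and ranked 529 among the 1473 genes called lower. Per unit of Cd74, H2-Aa was at 0.222 to 0.229 in WT, against at 0.102 to 0.113 in PGRN KO, and H2-Eb1 at 0.305 to 0.335 and 0.145 to 0.186. H2-Ab1 per Cd74 was 0.364 to 0.449 in WT, against 0.289 to 0.306 in PGRN KO. All 3 chains were therefore lower relative to the invariant chain in each PGRN KO library than in any WT library.

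H2-DMa and H2-DMb1 encode the alpha and beta chains of the loading factor H2-DM. H2-DMa was at 5.60, 4.49 and 4.27 FPKM in WT and at 2.01, 2.62 and 1.89 in PGRN KO. H2-DMb1 was at 6.86, 6.62 and 7.71 FPKM in WT and at 3.58, 3.15 and 3.29 in PGRN KO. Both partners were at about the same fraction of WT in the knockout, 0.454 for H2-DMa and 0.473 for H2-DMb1. Their log2 fold changes were -0.87 ± 0.121 (adjusted p = 0.00517) and -0.89 ± 0.074 (adjusted p = 0.000825) in the limma fit. The ratio of H2-DMa to H2-DMb1 overlapped between genotypes, at 0.554 to 0.816 in WT, against 0.562 to 0.830 in PGRN KO.

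H2-DMb2 is a second beta chain gene of H2-DM next to H2-DMb1. It was at 0.448, 0.210 and 0.478 FPKM in WT and at 0.328, 0.193 and 0.298 in PGRN KO, which rests on 33 and 26 fragments in all. The ranges overlapped, and the log2 fold change of -0.11 had a 95% interval of -0.35 to 0.12 (limma adjusted p = 0.489). This scale compresses changes of genes this low. Fitted on the recovered fragments, the log2 fold change was -0.40 (limma voom adjusted p = 0.592), so a difference was not detectable at this depth. The reference transcripts of H2-DMb1 and H2-DMb2 were 94.2% identical over their aligned 1246 bases, and 13.7% of the 100-base stretches of H2-DMb1 also occurred in H2-DMb2. Reads could thus be split between these 2 genes by the counting, and both values are uncertain to that extent.

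Ciita, which encodes the transactivator, had low levels throughout, at 0.636, 0.560 and 0.502 FPKM in WT, against 0.118, 0.0866 and 0.112 in PGRN KO. These correspond to 103, 89 and 82 fragments in WT and to 20, 15 and 21 in PGRN KO. In all, 274 fragments (exact Poisson 95% interval 243 to 308) stood against 56 (42.3 to 72.7), intervals that cover counting error only. WT had 5.37 times the mean FPKM of PGRN KO, the widest ratio of the 8 genes. On the log2(FPKM + 1) scale, which understates changes of genes below 1 FPKM, the log2 fold change was -0.50 ± 0.065 (limma adjusted p = 0.00398). On the recovered fragments it was -2.39 with limma voom. Ciita per Cd74 was 0.00618 to 0.00740 in WT, against 0.00149 to 0.00201 in PGRN KO, without overlap.

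**Figure D1:**
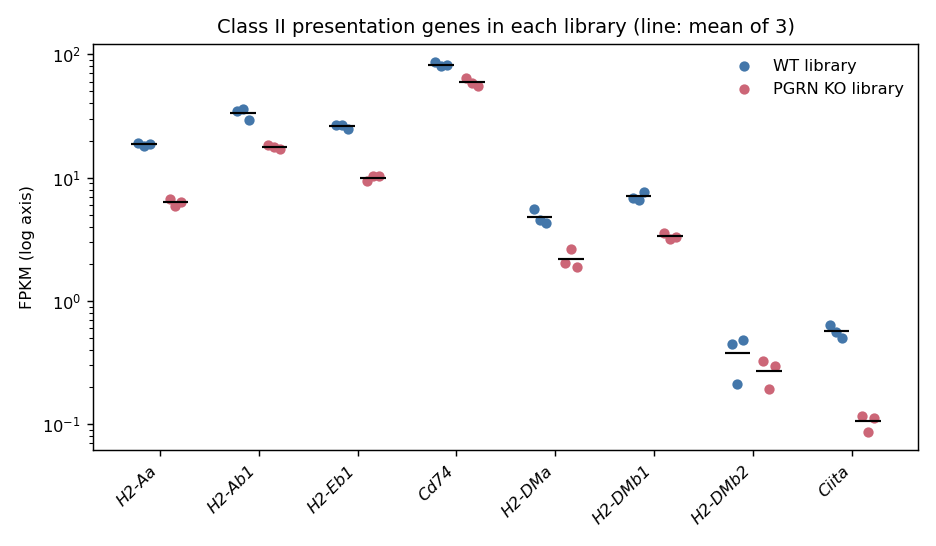
FPKM on a log axis of the 8 class II presentation genes in the 3 WT (blue) and 3 PGRN KO (red) libraries, each point being 1 library and each line the mean of 3. All points of the genotypes are apart for 7 genes, from Cd74 at 55.8 to 85.9 FPKM down to Ciita at 0.0866 to 0.636 FPKM, and they overlap for H2-DMb2.

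By level, the WT order was Cd74, H2-Ab1, H2-Eb1, H2-Aa, H2-DMb1, H2-DMa, Ciita and H2-DMb2, and no neighbours in it overlapped across the 3 libraries. The PGRN KO order was the same for the first 6 genes, again without overlap between neighbours, and H2-DMb2 stood above Ciita. The levels of 7 of the 8 genes did not overlap between genotypes in the lower direction, which was so for 19.6% of all genes tested (37.7% did not overlap in either direction). In the 8 genes the median log2 fold change was -0.87, against 0.0026 over all genes tested. Each of the 7 calls was kept when any 1 of the 6 libraries was left out. It was also kept in every other fit that tested the gene, among them plain totals, quantile normalization and the fit on recovered fragments. In bulk RNA, fewer cells that carry class II and less class II RNA per cell cannot be told apart.

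Around these genes, the class II region of chromosome 17 did not move as a block. Of 15 genes listed from H2-Oa to Btnl2, 14 were tested, with a median log2 fold change of -0.17. Of the 14, 6 were called lower and 1 higher, beside 9.95% lower and 7.94% higher among all genes tested. The 6 lower genes were H2-DMa, H2-DMb1, H2-Ab1, H2-Aa, H2-Eb1 and Brd2. Only Brd2, a chromatin reader outside the class II pathway, is not among the 8 genes described here. Its log2 fold change was -0.42 (limma adjusted p = 0.00402). Between H2-DMb1 and H2-Ab1 lie genes of the class I pathway. Of these the proteasome subunit Psmb9 rose by 0.33 on the log2 scale (limma adjusted p = 0.0146), a call lost without PGRN KO library 5 (adjusted p = 0.0625) or WT library 2 (adjusted p = 0.0577). Its neighbours, the peptide transporter genes Tap1 and Tap2 and the proteasome subunit Psmb8, had log2 fold changes of 0.0089, 0.13 and -0.050 and were not called. The direction given for Psmb8 turned with plain totals, to 0.067, and that for Tap1 turned when single libraries were left out.

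**Figure D2:**
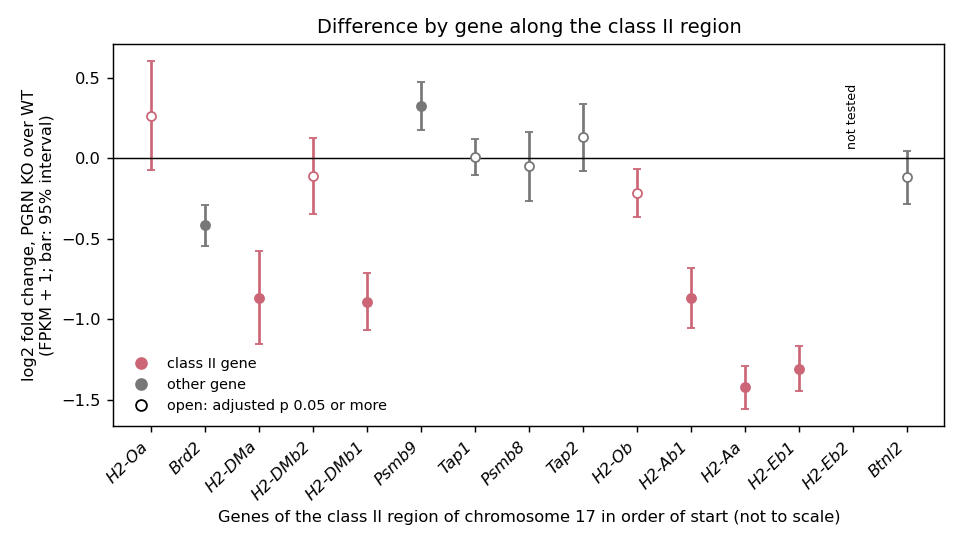
Log2 fold change of FPKM + 1 (PGRN KO over WT, with 95% interval) of the genes of the class II region in their order on chromosome 17, not to scale, with class II genes in red, other genes in grey and open points at an adjusted p of 0.05 or more. The 5 lowest points are H2-DMa, H2-DMb1, H2-Ab1, H2-Aa and H2-Eb1, while Psmb9, Tap1, Psmb8 and Tap2, which lie among them, are at -0.050 to 0.33.

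The other class II chain genes gave little RNA, and neither of the 2 that were tested was called. H2-Oa and H2-Ob encode H2-O, an inhibitor of H2-DM. H2-Oa was at 1.03, 0.365 and 0.667 FPKM in WT and at 1.07, 0.964 and 0.968 in PGRN KO and overlapped. H2-Ob was at 0.317, 0.266 and 0.241 FPKM in WT and at 0.0711, 0.0873 and 0.129 in PGRN KO, without overlap. H2-Ob was not called at a log2 fold change of -0.22 (limma adjusted p = 0.0567), whereas the fit on recovered fragments called it at -1.46 (limma voom adjusted p = 0.0236). The pseudogene H2-Ea-ps and H2-Eb2 had 1 fragment each in PGRN KO and none in WT.

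Genes for the DNA-binding factors of the module were not called. None of Rfx5, Rfxap, Rfxank (the RFX complex), Nfya, Nfyb, Nfyc (NF-Y) and Creb1 passed the test, and their median log2 fold change was -0.070, or 0.024 with plain totals, so its sign depends on the scaling. Rfx5, Rfxap, Rfxank and Nfya were each just below 0 in the authors' scaling and above 0 with plain totals (0.017, 0.024, 0.070 and 0.0025). They ranged from -0.17 for Nfyc to 0.18 for Nfyb (limma adjusted p = 0.0799). Their summed level was 41.3 to 43.0 FPKM in WT and, in PGRN KO, 39.99 to 42.3. Nfyb was called higher with plain totals (0.29, limma adjusted p = 0.0187) and on recovered fragments (0.21, limma voom adjusted p = 0.0483).

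Interferon gamma, the classical inducer of Ciita, signals through its receptor (Ifngr1 and Ifngr2), the kinases Jak1 and Jak2 and, further down, the factor Irf1, and Socs1 restrains it. Of these 6 genes, 3 were lower in PGRN KO and none was higher, beside 9.95% lower among all genes tested. Jak1 fell by 0.41, Jak2 by 0.39 and Irf1 by 0.35 on the log2 scale (limma adjusted p = 0.00565, 0.00916 and 0.00756), and these calls were kept when any 1 library was left out. Irf1 was at 31.5, 30.8 and 28.5 FPKM in WT and at 22.6, 23.6 and 24.3 in PGRN KO. The other 3, Ifngr1, Ifngr2 and Socs1, were at -0.13, -0.15 and -0.34 and were not called, and the median log2 fold change of the 6 genes was -0.35.

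Among 7 genes that trim the invariant chain or process antigen, 5 were lower in PGRN KO and none was higher. Their median log2 fold change was -0.40, and 9.95% of all genes tested were lower. The largest falls were in Lgmn (legumain, which starts the cleavage of the invariant chain) and Ifi30 (which reduces disulfide bonds of antigens). Lgmn was at 76.2, 68.3 and 67.3 FPKM in WT and at 31.8, 30.7 and 32.2 in PGRN KO, a log2 fold change of -1.13 (limma adjusted p = 0.000151). Ifi30 was at 43.9, 42.4 and 39.8 FPKM in WT and at 19.99, 17.9 and 20.8 in PGRN KO, a log2 fold change of -1.07 (limma adjusted p = 0.000335). Both fell about as far as the class II chains and ranked 28 and 40 among the genes called lower. Ctss (cathepsin S, which completes the trimming) and Ctsb fell by 0.40 each and Ctsd by 0.21. Ctsl, a related protease, was at 0.024, and Sppl2a, which clears the last stub of the invariant chain, was at -0.25 (limma adjusted p = 0.0569), neither being called. The call of Ctsd was lost without PGRN KO library 5, WT library 1 or WT library 2 (limma adjusted p up to 0.0701) and with plain totals (-0.095, adjusted p = 0.156).

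The 3 genes for class II turnover, the ubiquitin ligases Marchf1 and Marchf8 and their antagonist Cd83, were not called, at log2 fold changes of -0.27, -0.15 and -0.13, with a median of -0.060 with plain totals. Of 6 costimulatory or coinhibitory genes, 5 were lower in PGRN KO and none was higher, beside 9.95% lower among all genes tested. Their median log2 fold change was -0.28, or -0.17 with plain totals. Cd40, through which T cells activate presenting cells, was at 7.28, 6.97 and 7.29 FPKM in WT and at 2.81, 2.85 and 3.11 in PGRN KO, a log2 fold change of -1.06 (limma adjusted p = 0.000205). Cd274, the inhibitory ligand PD-L1, was at 384, 393 and 407 FPKM in WT and at 297, 268 and 283 in PGRN KO, a log2 fold change of -0.48 (limma adjusted p = 0.00186). Cd86, Icosl and Pdcd1lg2 fell by 0.28, 0.28 and 0.27, and Cd80 was at -0.13 and not called. Only Cd40 and Cd274 of the list kept their call whichever library was left out. Cd86 lost it without PGRN KO library 5, WT library 1 or WT library 2 (limma adjusted p up to 0.0682), Icosl in every case but the removal of PGRN KO library 4 (up to 0.0929) and Pdcd1lg2 in every case but that of PGRN KO library 5 (up to 0.0814). With plain totals these 3 were not called either.

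Counted over these lists of pathway genes, without the 8 genes themselves, 13 of 31 tested genes were called lower and none higher, with a median log2 fold change of -0.22. For comparison, 17.9% of all tested genes were called in either direction and 9.95% were lower. The lists were put together with earlier results of these data known, so the count describes these genes and is not a test of the pathway.

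**Figure D3:**
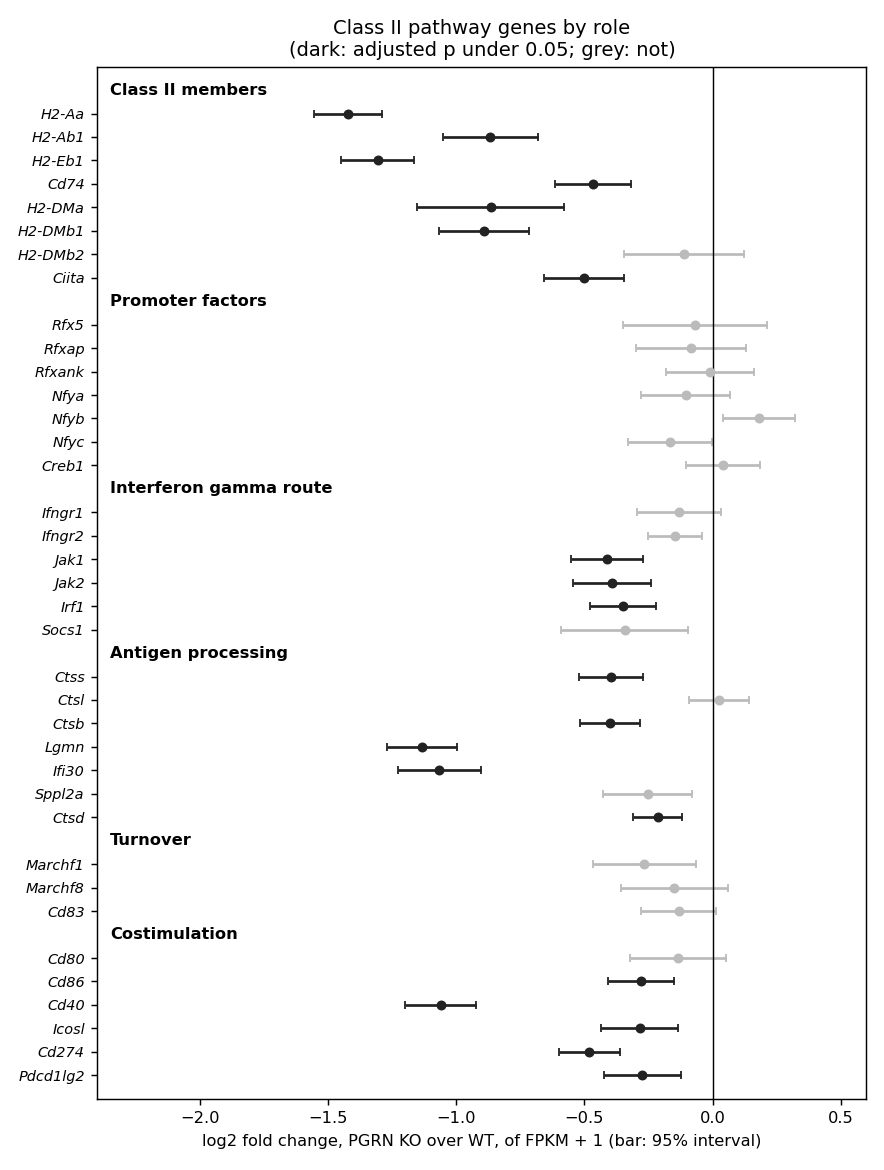
Log2 fold change of FPKM + 1 (PGRN KO over WT, point) with its 95% interval (bar) for the 8 class II genes and 29 genes of the pathway grouped by role, dark where the limma adjusted p was under 0.05 and grey elsewhere. The 7 called class II genes lie between -1.42 and -0.47, Lgmn, Ifi30 and Cd40 lie below -1, and the promoter factors lie between -0.17 and 0.18.

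Cells other than neutrophils can bring class II RNA into such a preparation, so their markers were read in the same libraries. Of 12 markers of dendritic cells, 7 were tested, 3 were called lower (Ccr7, Itgax and Irf8, which other leukocytes also carry) and none higher, beside 9.95% lower among all genes tested, with a median log2 fold change of -0.33. Fscn1, Xcr1, Clec9a and Irf4 were not called, at -0.33, -0.18, -0.095 and 0.077, on a scale that understates changes of genes this low. Fitted on the recovered fragments they were at -0.88, -0.69, -0.71 and 0.32, and of these only Fscn1 was called (limma voom adjusted p = 0.0206). Fscn1 and Xcr1 were lower in PGRN KO without overlap, which was so for 19.6% of all genes tested. Ccr7, the chemokine receptor of migrating dendritic cells, was at 26.0, 25.6 and 23.8 FPKM in WT and at 12.8, 9.72 and 12.2 in PGRN KO, a log2 fold change of -1.06 (limma adjusted p = 0.00136). Itgax and Irf8 fell by 0.42 and 0.39 (limma adjusted p = 0.0104 and 0.0108). The summed level of the list was 35.3 to 37.2 FPKM in WT, against 17.2 to 20.8 in PGRN KO, of which Ccr7 was the greatest share. Several factors and receptors that define dendritic cells were near 0 in both genotypes. In WT and PGRN KO there were 31 and 13 fragments of Flt3, 24 and 20 of Zbtb46, 12 and 4 of Batf3 and 1 and 0 of Siglech. Clec9a had 29 and 18 fragments and Xcr1 had 96 and 65. The WT mean of Xcr1, 0.424 FPKM, was not far below that of Ciita, 0.566 FPKM. Flt3 and Batf3 did not overlap between genotypes and were below the FPKM minimum for a test. The part of dendritic cells in the fall of class II RNA was not tested.

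Among markers of B cells, none that was tested was called lower in PGRN KO. Pax5 and Ighd had no fragment in any library, and Ms4a1 had 3 in WT and 1 in PGRN KO. For a gene with none, the exact Poisson 95% interval reached 3.69 fragments over the 3 libraries of a genotype, which covers counting error only. Of 11 B cell genes, 4 were tested, with a median log2 fold change of 0.34. Cd79a and Cd79b, parts of the B cell receptor, were higher in PGRN KO (log2 fold change 0.61 and 0.77, limma adjusted p = 0.0343 and 0.00921). For comparison, 7.94% of all genes tested were higher. The other 2 were not called, and 1 of the 4 was below 0. The call of Cd79a was lost in every case but the removal of WT library 2 (limma adjusted p up to 0.124). Cd79b kept its call whichever library was left out. It had means of 0.276 FPKM in WT and 1.18 in PGRN KO, on 20 and 95 fragments, and the scale understates changes of genes this low. Fitted on the recovered fragments, the log2 fold change of Cd79b was 2.10 (limma voom adjusted p = 0.00103). The list summed to 1.86 to 3.52 FPKM in WT, against 4.15 to 5.40 in PGRN KO, most of it Cd79a. The part of B cells in the class II values was not tested.

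Of 7 monocyte and macrophage markers, 2 were lower in PGRN KO (Ccr2 and F13a1) and 1 was higher (Ly6c2), beside 9.95% lower and 7.94% higher among all genes tested. Their median log2 fold change was -0.15, or -0.037 with plain totals, and all 3 kept their calls with that scaling. Ccr2, the chemokine receptor of inflammatory monocytes, was at 3.61, 3.80 and 4.05 FPKM in WT and at 1.48, 1.73 and 1.99 in PGRN KO, a log2 fold change of -0.82 (limma adjusted p = 0.00200). Csf1r, the receptor on which these cells depend, had a mean of 45.6 FPKM in WT and 40.9 in PGRN KO and was not called (-0.15, limma adjusted p = 0.105, and -0.037 with plain totals). The list summed to 553 to 558 FPKM in WT, against 570 to 723 in PGRN KO, most of it Ly6c2. F13a1 lost its call without WT library 3 and Ly6c2 in every case but the removal of PGRN KO library 4. The part of these cells in the class II values was not tested.

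**Figure D4:**
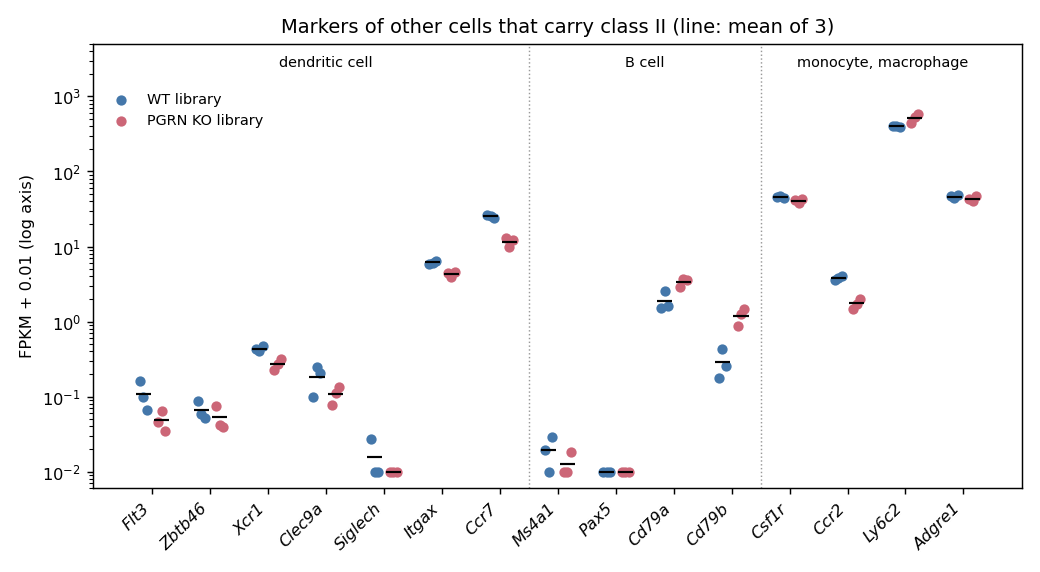
FPKM + 0.01 on a log axis of markers of dendritic cells, B cells, monocytes and macrophages in the 3 WT (blue) and 3 PGRN KO (red) libraries, each line being the mean of 3. Ccr7, Itgax and Ccr2 are lower in every PGRN KO library, Cd79a and Cd79b are higher in every PGRN KO library, and Pax5 is at 0 in all 6.

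Genes with a pattern most like the class II genes were sought by Pearson's r over the 6 libraries between log2(FPKM + 1) and the mean of H2-Aa, H2-Ab1, H2-Eb1 and Cd74, among 9245 genes with a mean of at least 1 FPKM. The 10 highest were Htra1, Axl, Osgin1, Adam8, Dgkz, Tcirg1, Imp4, Nr1h3, Bcl2a1a and Rasa3, with r from 0.998 to 1.000. All 10 were lower in PGRN KO, by log2 fold changes from -0.27 (Tcirg1) to -1.20 (Axl). That direction follows from ranking by likeness to genes that fell. Axl, a receptor tyrosine kinase for the uptake of dying cells, was at 18.0, 17.2 and 15.998 FPKM in WT and at 7.15, 6.54 and 6.95 in PGRN KO. Nr1h3, the nuclear receptor LXR alpha, had means of 2.71 and 1.09 FPKM. Values this high come mainly from the gap between genotypes, since 675 of the 9245 genes had r above 0.95. For deviations from the genotype means r was 0.997 for Htra1, a secreted protease, 0.909 for Axl and 0.494 for Rasa3. The 6 points share genotype and library, and Bcl2a1a belongs to a family of near-identical copies whose reads the counting could split.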

How the data were processed

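RNA of 6 neutrophil libraries, 3 WT and 3 PGRN KO, was sequenced by the authors after poly-A selection, in paired reads and with a kit that does not mark strand. The authors mapped the reads with a HISAT aligner and deposited FPKM values per gene. The submitters' processing notes name HISAT2 2.0.5, featureCounts 1.5.0-p3 and DESeq2 1.20.0 and the builds mm10 and GRCm38, while the methods name another counter, so the counting program is not certain. Fragment numbers were recovered from the deposited FPKM and gene length, and all values above 0 were whole within 0.05. They give the depth, and intervals from them cover counting error only. Groups were taken from the genotype labels, no library was left out, and libraries of 1 genotype differed by more than sampling noise.

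Genes with a mean of at least 0.1 FPKM (14807 genes) were tested on log2(FPKM + 1) with limma 3.58.1 (lmFit, eBayes with trend, two-sided) in R 4.3.3, and p-values were adjusted by Benjamini-Hochberg over all of them. Genes were called at an adjusted p under 0.05. Log2 fold changes are on this scale, which understates changes of low genes. The authors' own test was DESeq2, which needs counts and was not run here; limma voom on recovered fragments was an alternative. The others were pseudocounts of 0.1 and 0.5, no minimum and a minimum of 1 FPKM, median-of-ratios, quantile and plain-total scaling, eBayes without trend and robust, protein-coding genes alone, and each library left out. The scripts were tested on simulated data.

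Genes named were the 8 class II genes, Grn, in each list the called, the most abundant and the cell-defining genes, and the 10 genes most like the class II pattern. The 14 lists covered class II genes, other class II chains, promoter factors, the interferon gamma route, antigen processing, turnover, costimulation, 6 cell types and the class II region. Some genes of the lists are not reported here. Members and lists were chosen with earlier results of these data known. Symbols of 27 genes were stored as dates in the deposited table, and Marchf1 and Marchf8 were found by gene identifier. Positions are those of the table. Promoters are from RefSeq (GRCm38.p6). Transcripts of H2-DMb1 and H2-DMb2 are from GENCODE M21, a different release from that of the table: positions were the same for 53462 of 54409 shared genes but for only 2 of the 8 class II genes.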

Additional observations from a re-analysis of the deposited data

How the results depend on the processing

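Of 14807 genes, 2648 were called. When single libraries were left out the count ran from 1322 (without PGRN KO library 5) to 2161 (without PGRN KO library 4), and it was 1335 without WT library 2, 1612 without WT library 1 and 1662 without WT library 3. In the other 11 fits it ran from 2037 (no minimum) to 3620 (voom on recovered fragments). The 7 class II genes called lower were called in all 6 fits with a library left out and in all 11 others, except that a minimum of 1 FPKM left Ciita and H2-DMb2 untested. H2-DMb2 was called in none of the fits that tested it. Plain totals of fragments gave 2149 genes higher and 934 lower, against 1175 and 1473, and shifted the median log2 fold change of all genes by 0.064. Direction turned for 7 genes given with a value, none of them called. With plain totals Psmb8 went to 0.067, Rfx5 to 0.017, Rfxap to 0.024, Rfxank to 0.070 and Nfya to 0.0025. With single libraries left out Rfx5 ran from -0.16 to 0.021 (without WT library 2), Rfxank from -0.053 to 0.037 (without PGRN KO library 4), Psmb8 from -0.13 to 0.0048 (without WT library 2), Ctsl from -0.0052 (without WT library 1) to 0.048, and Tap1 from -0.015 (without WT library 1) to 0.042, being just below 0 in 3 more of these fits. Among single genes named, 69 values lost and 24 gained a call under an alternative, 834 stayed on the same side of the threshold, and the cause was not tested. No paired analysis was possible because the replicate numbers in the labels are not shared between WT and PGRN KO. Depth limits H2-DMb2, the H2-O genes and the defining markers of dendritic and B cells, which rest on few fragments.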

Other observations

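Plasma cells are antibody-secreting cells that carry little class II. Of 7 genes listed for them, 3 were higher in PGRN KO (Jchain, Derl3 and Tnfrsf17) and 1 was lower (Prdm1). The other 3 were not called, and the median log2 fold change was 0.16. For comparison, 7.94% of all genes tested were higher and 9.95% lower. Tnfrsf17 rests on 12 fragments in PGRN KO and 0 in WT. Jchain, the joining chain of secreted IgM and IgA, was at 22.2, 22.5 and 21.4 FPKM in WT and at 63.0, 75.8 and 77.2 in PGRN KO, a log2 fold change of 1.66 (limma adjusted p = 0.000138). Derl3, a gene of the secretory pathway, rose by 0.69 (limma adjusted p = 0.00696). It had means of 0.188 FPKM in WT and 0.917 in PGRN KO, on 19 and 102 fragments, and the scale understates changes of genes this low. Fitted on the recovered fragments, Derl3 rose by 2.23 log2 units (limma voom adjusted p = 0.000482). The calls of Jchain and Derl3 were kept when any 1 library was left out, and those of Tnfrsf17 and Prdm1 were each lost in 5 of the 6 cases. Of 6 T cell markers, Cd3e and Cd3g had no fragment in any library, and Cd3d, the only gene tested, was not called (log2 fold change -0.15, limma adjusted p = 0.540).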
